A study of Mus musculus with 8 samples.

Results

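The replication-dependent histone genes are the 48 genes, of 16130 in the deposited count table, whose symbols begin with Hist1h, Hist2h, Hist3h or Hist4h. The rule reads the symbol alone. By class they are 5 linker histone H1 genes, 13 H2A, 15 H2B (1 of them, Hist3h2bb-ps, annotated as a pseudogene), 4 H3 and 11 H4 genes. RNA was taken from the distal colon of Tcf4Het/+ ApcMin/+ mice. Both groups carried both alleles, Tcf4Het and ApcMin; ApcMin truncates the Wnt pathway inhibitor Apc and gives intestinal adenomas. The groups were 4 samples from enriched housing (EE) and 4 from conventional, non-enriched housing (NE), each after 4 months, with no other treatment. Libraries were depleted of ribosomal RNA and kept the strand, so that transcripts without a poly(A) tail remained in them. Whether the libraries are from separate animals or from pools is not in the labels, nor are the tumour content of each piece and the age of the animals when housing began. Every p-value below therefore measures the spread between these samples.

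Replication-dependent histones package newly copied DNA, and their genes are transcribed in S phase. Their mRNAs are the main animal mRNAs that end without a poly(A) tail: a conserved hairpin near the 3′ end, the histone stem-loop, is bound by the protein SLBP, and the transcript is cut just after it with the help of the U7 small nuclear RNA. When DNA synthesis stops these mRNAs are quickly degraded, so that in the gut they mark mainly the dividing cells of the crypt and of adenomas. In a whole piece of colon, fewer dividing cells and less histone mRNA per cell cannot be told apart.

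In the GENCODE M21 annotation (GRCm38, the same build as mm10), 46 of the 48 genes have a model. On chromosome 13 there are 38 of these models, in 3 blocks. The first block holds 9 genes (chr13:21715763-21789213), the second 5 (chr13:22035164-22043676) and the third 24 (chr13:23531050-23764406). The other models are 4 genes on chromosome 3 (chr3:96219865-96263311), 3 on chromosome 11 (chr11:58948920-58956830) and Hist4h4 alone on chromosome 6 (chr6:136801553-136804415). Hist1h2bm and Hist1h2bh have no model in this annotation. Its 24 further genes with such symbols were not analysed here.

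The stem-loop is the feature that sets these transcripts apart from other mRNAs, and it was found by script in the annotated transcripts of 32 of the 46 genes, in 7 forms. One gene is shown for each form, with the arms of the stem in capitals, the loop between them in lower case and 5 flanking bases on each side.
Hist1h1c (chr13:23739507-23739532, + strand): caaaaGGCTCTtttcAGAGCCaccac
Hist1h2bb (chr13:23747198-23747223, + strand): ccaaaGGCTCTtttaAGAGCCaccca
Hist2h2ac (chr3:96220413-96220438, - strand): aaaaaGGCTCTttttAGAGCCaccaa
Hist4h4 (chr6:136803993-136804018, - strand): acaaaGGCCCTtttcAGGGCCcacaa
Hist2h4 (chr3:96262934-96262959, - strand): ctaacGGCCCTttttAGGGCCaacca
Hist1h4b (chr13:23757361-23757386, + strand): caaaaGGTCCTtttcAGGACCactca
Hist1h4a (chr13:23760795-23760820, - strand): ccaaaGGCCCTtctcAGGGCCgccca
The form of Hist1h1c was the most frequent, with 17 genes of classes H1, H2A, H2B and H3. The form of Hist1h2bb was found in 4 H2B and H3 genes and that of Hist2h2ac in 1 gene. The 4 forms with CCC or TCC in the stem were found in 10 genes, which are all H4 genes, and in no gene of another class: 5 genes have that of Hist4h4, 2 that of Hist2h4, 2 that of Hist1h4b and 1 that of Hist1h4a. Of the 14 models without a match, 9 reach at most 60 bases beyond the coding sequence, and no match says only that the letters are not in the model. In 13 models the annotation runs over 300 bases past the loop, and in Hist4h4 it runs 2445 bases past it.

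RefSeq promoter windows (GRCm38.p6, 250 bases before to 50 after each start) were matched for 43 of the 48 genes, as 44 windows because Hist1h2be has 2 starts. Hist1h2bc, Hist1h3a, Hist2h2be, Hist2h4 and Hist3h2bb-ps had no entry. Each motif was searched on both strands. The stretches below show how the classes differ: an H4 gene with and 1 without a TATA box, an H1 gene, an H2B gene, and stretches shared by an H2A and an H2B gene that are read in opposite directions. Capitals mark TATAAA (the TATA box), CCAAT (bound by NF-Y), ATTTGCAT (the octamer, bound by Oct-1), AAACACA (the H1 box) and GGTCCG (in site II of H4 genes, bound by HINFP), or their reverse complements.
Hist1h4d (150 bases before the start, chr13:23581418-23581567, + strand): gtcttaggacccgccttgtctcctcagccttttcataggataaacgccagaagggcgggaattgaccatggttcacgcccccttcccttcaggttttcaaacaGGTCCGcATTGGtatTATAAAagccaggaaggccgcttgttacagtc
Hist4h4 (150 bases before the start, chr6:136804432-136804581, - strand): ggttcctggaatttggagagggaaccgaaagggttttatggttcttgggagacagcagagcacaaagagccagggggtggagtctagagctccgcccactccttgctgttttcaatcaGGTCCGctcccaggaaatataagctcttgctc
Hist1h1d (150 bases before the start, chr13:23554882-23555031, + strand): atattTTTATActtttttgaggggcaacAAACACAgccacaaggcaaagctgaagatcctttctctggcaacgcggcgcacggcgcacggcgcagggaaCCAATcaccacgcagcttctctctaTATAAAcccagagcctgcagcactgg
Hist1h2bg (150 bases before the start, chr13:23571250-23571399, + strand): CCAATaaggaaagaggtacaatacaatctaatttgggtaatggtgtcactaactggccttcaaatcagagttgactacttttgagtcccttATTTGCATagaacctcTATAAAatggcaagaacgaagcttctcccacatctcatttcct
Between Hist1h2ak and Hist1h2bn (163 bases, chr13:21753913-21754075, + strand): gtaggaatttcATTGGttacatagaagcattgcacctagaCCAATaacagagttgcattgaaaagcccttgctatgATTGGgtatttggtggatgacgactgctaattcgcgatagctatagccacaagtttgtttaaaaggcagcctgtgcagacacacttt
Between Hist1h2an and Hist1h2bp (239 bases, chr13:21787249-21787487, + strand): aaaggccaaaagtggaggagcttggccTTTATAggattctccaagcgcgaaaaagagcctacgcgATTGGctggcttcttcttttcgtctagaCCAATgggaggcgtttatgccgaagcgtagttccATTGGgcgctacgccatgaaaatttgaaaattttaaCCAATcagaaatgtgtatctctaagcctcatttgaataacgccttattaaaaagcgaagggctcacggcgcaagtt
TATAAA was present in 61.4% of the histone windows and in 13.6% of the 32807 windows of other genes. A match anywhere in the window counted, so it need not be a TATA box of that start. The windows of Hist1h2ak and Hist1h2bn each have one, though the stretch between their starts has none. CCAAT was present in all 34 windows of classes H1, H2A, H2B and H3, in 3 of 10 H4 windows and in 37.3% of the other windows. The octamer was found in 11 windows, 6 of H2A and 5 of H2B genes, against 1.70% of the others. The H1 box was in 4 of 5 H1 windows against 7.18% of the others. GGTCCG was in 9 of 10 H4 windows, 1 H2B window and 8.23% of the others. Among the genes with a window, 7 head-to-head pairs of H2A with H2B were found, with 163 to 248 bases between starts. Hist1h2bc, Hist2h2be and Hist3h2bb-ps had no entry and were not paired. In the GENCODE models they too lie head to head, with Hist1h2ac, Hist2h2ac and Hist3h2a respectively. A match between the starts of a pair can count for both genes. These matches are descriptions of letters and not measured binding.

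Library totals lay between 4735764 and 10586851 counts. EE 4 stood apart from the other 7 libraries in its markers of other cell types. The summed level of 8 smooth muscle genes was 645 CPM in EE 4 against 2234 to 5482 in the other libraries (CPM, counts scaled to a common library size), and that of 8 plasma cell genes was 1048 CPM against 2117 to 4342. All 12 markers of distal colon epithelium were present, with 1719 to 2109 CPM of the epithelial adhesion gene Epcam. Of the small intestinal markers, Apoa4 was at 0 to 1.74 CPM, Lyz1 at 122 to 606 CPM and Defa24 at 4.69 to 28.6 CPM. The part of these markers in the histone values was not tested.

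Histone counts made up overlapping shares of the EE and NE libraries, and no histone gene passed the test between EE and NE. The 48 genes took 0.269%, 0.269%, 0.275% and 0.360% of all counts in NE 1 to NE 4 and 0.253%, 0.332%, 0.431% and 0.304% in EE 1 to EE 4. Their summed level was 2807, 2730.3, 2736 and 3648 CPM in NE 1 to NE 4 and 2542, 3453, 4086 and 2925 CPM in EE 1 to EE 4. The lowest and the highest of the 8 libraries were thus both EE libraries, and the groups overlapped. The mean sum was 2980.2 ± 447 CPM for NE and 3251 ± 669.9 CPM for EE (SD, n = 4 each), a ratio of 1.09. That ratio was 1.004 without EE 3, 1.18 without NE 4 and 1.13 without EE 4.

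Of the 48 genes 47 passed the filter on low counts, and 0 of these had an adjusted p under 0.05 by edgeR's quasi-likelihood test, as for all genes tested (0% of 14311). Their adjusted p-values ran from 0.520 to 0.995. At an unadjusted p under 0.05 there was 1 histone gene, higher in EE, and 0 lower, against 9.48% of all tested genes (5.73% higher and 3.75% lower in EE). DESeq2 also gave 1 such gene and limma-voom 0. The EE values lay all above or all below the NE values in 0 of the 47 genes, against 2.87% and 2.02% of all tested genes. The log2 fold change, EE minus NE, was positive for 34 of the 47 genes against 50.3% of all tested genes, and its median was 0.16 against 0.00. It ran from -0.32 (Hist2h2ab) to 0.57 (Hist4h4), and 27 genes lay within 0.2 of 0. Standard errors ran from 0.10 to 0.70 with a median of 0.20. The median depended on single libraries: it was 0.03 without EE 3, 0.27 without NE 4, 0.26 without EE 1 and 0.20 without EE 4. The number of the 47 at an unadjusted p under 0.05 was 0 without EE 3, 5 without NE 4, 9 without EE 1 and 2 without EE 4. The share of all genes in the same fits was 7.55%, 10.57%, 10.44% and 6.64%.

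**Figure D1:**
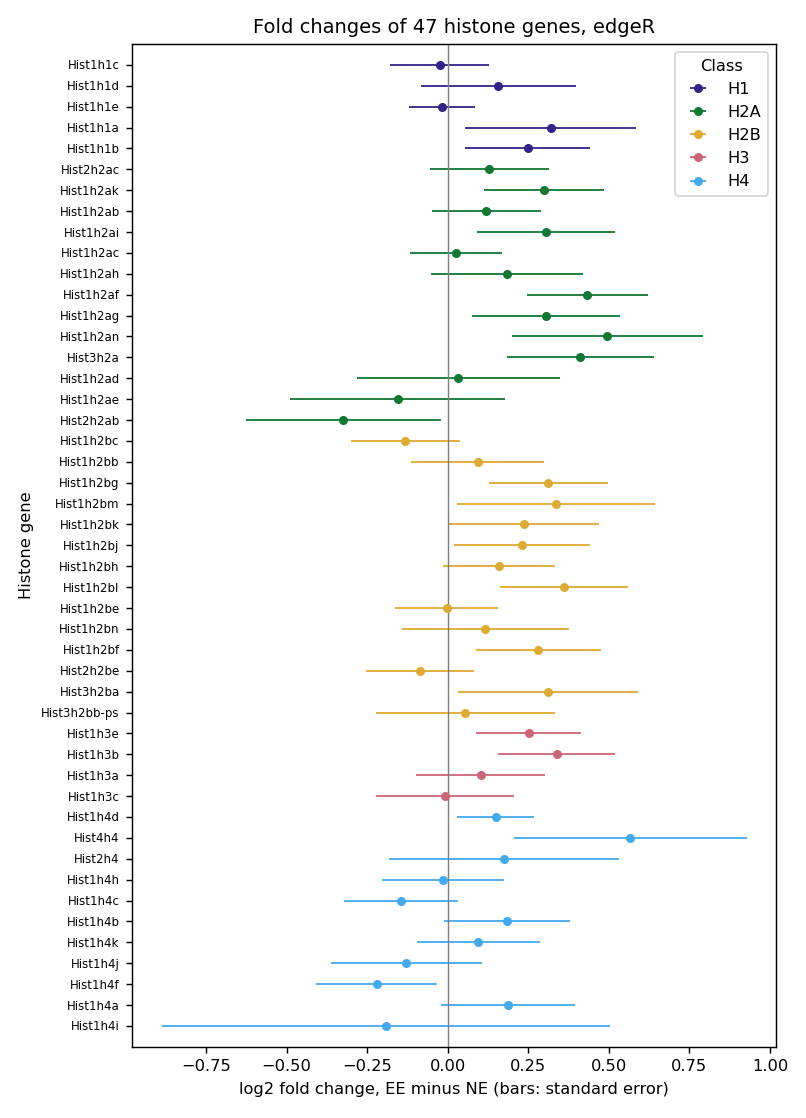
Log2 fold change, EE minus NE, of the 47 tested histone genes (points, coloured by class) with the standard error of the edgeR fit (bars), ordered within class by mean CPM. Most points lie to the right of 0 (34 of 47), between -0.32 and 0.57, and none has an adjusted p below 0.520.

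Expressed per kilobase of coding sequence, the H4 genes together were the most abundant class. Their summed level was 2565 ± 513 CPM per coding kilobase in NE and 2796 ± 818 in EE (SD, n = 4 each). H1 followed with 1858 ± 263 in NE and 2003 ± 356 in EE, and H2B with 1487 ± 174 and 1592 ± 374. H2A stood at 672 ± 114 in NE and 769.7 ± 121 in EE, and H3 at 351 ± 43.3 and 415 ± 83.2. Within NE the ranges of neighbouring classes did not overlap, except that H1 (from 1688) and H2B (up to 1706) met. Within EE, H4 (from 1812) overlapped H1 (1654 to 2431), and H1 overlapped H2B (up to 1980.2), so these classes are not separated there. Class sums cover only the genes of the table, and each was divided by the median coding length of its class. The 3 H2B genes without a coding model are in the H2B sum but not in that median length. Reads outside the coding sequence are also in the sums, and exon models can be much longer. That of Hist4h4 is 2863 bases against 309 of coding sequence, and its level was 436 CPM per coding kilobase but 47.1 per kilobase of model. The order of the classes therefore holds for coding length only, and reads of near copies may enter it. The 6 genes with the highest counts held 46.15% of the histone CPM and the 16 highest held 76.43%.

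The linker histones H1 bind DNA where it enters and leaves the nucleosome. All 5 H1 genes were among the 6 histone genes with the highest CPM, and they took between 37.1% and 45.9% of the histone counts of each library. CPM are not scaled to length, and H1 coding sequences have 636 to 669 bases against 309 in H4. Per coding kilobase Hist1h1c was still the highest gene (626 CPM). Hist1h4d (505), Hist1h2bc (449) and Hist4h4 (436) then came before Hist1h1d (386) and the other H1 genes. Hist1h1c, the H1.2 gene, was at 388, 407, 399.8 and 412 CPM in NE 1 to NE 4 and at 456, 435, 404 and 285 CPM in EE 1 to EE 4. Its NE values lay close together, with EE 1 and EE 2 above them, EE 3 among them and EE 4 below all others. Its log2 fold change was -0.02 (SE 0.15, adjusted p = 0.955), and 0.11 without EE 4. Hist1h1e, the H1.4 gene, had the smallest standard error of the 18 histone genes described singly, with 215 to 227 CPM in NE and 206 to 229.7 CPM in EE (log2 fold change -0.02, SE 0.10, adjusted p = 0.953). Reads of Hist1h1e may include others, because the model of Hist1h2be overlaps it on the same strand.

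The other H1 genes varied more from library to library. Hist1h1a, the H1.1 gene, was at 164, 151, 165 and 274 CPM in NE 1 to NE 4 and at 145, 241, 343 and 211 CPM in EE 1 to EE 4. Hist1h1d, the H1.3 gene, was at 215, 226, 186 and 339 CPM in NE and at 193, 297, 371 and 217 CPM in EE. Hist1h1b, the H1.5 gene, was at 144, 159, 142 and 227 CPM in NE and at 165, 216, 249.6 and 165 CPM in EE. In all 3, NE 4 was the highest NE library and EE 3 the highest of all, and the groups overlapped. Their log2 fold changes were 0.32 (SE 0.27) for Hist1h1a, 0.16 (SE 0.24) for Hist1h1d and 0.25 (SE 0.19) for Hist1h1b, with adjusted p-values of 0.648, 0.804 and 0.630. Without EE 3 they were 0.09, -0.03 and 0.13, and without NE 4 they were 0.55, 0.37 and 0.43. None of the 50-base stretches of the Hist1h1a and Hist1h1b models occurs in a transcript of another gene, so an exact 50-base read of either gene matches no other transcript of the annotation.

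H2A pairs with H2B in the dimers that flank the nucleosome's H3-H4 core. Of the 13 H2A genes 11 had a positive log2 fold change (median 0.18), and the only histone gene at an unadjusted p under 0.05 was among them. Hist1h2af was at 15.5, 12.3, 14.1 and 10.8 CPM in NE 1 to NE 4 and at 20.6, 15.9, 20.9 and 14.0 CPM in EE 1 to EE 4. Each EE library but EE 4 was above all NE libraries, with EE 4 below NE 1 and NE 3. The log2 fold change was 0.43 (SE 0.19, unadjusted p = 0.0423, adjusted p = 0.520). Leaving out EE 4 gave 0.54 (unadjusted p = 0.0137, adjusted p = 0.723). Of the 50-base stretches of its model 94.0% occur in other transcripts, mostly H2A genes, so these values may include reads of near copies. Hist2h2ac, the H2A gene with the highest CPM, was at 53.2, 42.7, 42.9 and 59.7 CPM in NE and at 38.4, 59.7, 67.2 and 50.9 CPM in EE. Both its lowest and its highest value were in EE, and EE minus NE was 0.13 on the log2 scale (SE 0.18, adjusted p = 0.791).

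Of the 14 tested H2B genes 11 had a positive log2 fold change (median 0.19). Hist1h2bc, the H2B gene with the highest CPM, was at 195, 157, 163 and 194 CPM in NE 1 to NE 4 and at 136, 201, 185 and 126 CPM in EE 1 to EE 4. Values of EE 1 and EE 4 were below every NE library and EE 2 above them, and its log2 fold change was -0.13 (SE 0.17, adjusted p = 0.765), or -0.02 without EE 4. Hist1h2bb was at 78.6, 70.1, 68.8 and 106 CPM in NE and at 56.7, 99.1, 106 and 82.4 CPM in EE (log2 fold change 0.09, SE 0.21, adjusted p = 0.869). Hist1h2bg, with an octamer and a TATA box in the stretch shown above, was at 41.8, 35.0, 44.8 and 57.0 CPM in NE and at 41.8, 55.3, 68.9 and 55.2 CPM in EE. Apart from NE 4 and EE 1 its groups separated, and the log2 fold change was 0.31 (SE 0.18, adjusted p = 0.556).

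Of the 4 H3 genes, whose product forms the core of the nucleosome with H4, 3 had a positive log2 fold change (median 0.18). Hist1h3e was at 58.7, 68.2, 66.1 and 81.1 CPM in NE 1 to NE 4 and at 62.4, 77.7, 102 and 83.4 CPM in EE 1 to EE 4, with a high EE 3 (log2 fold change 0.25, SE 0.16, adjusted p = 0.582). Hist1h3b was at 43.6, 40.4, 44.2 and 55.0 CPM in NE and at 38.6, 60.3, 68.4 and 63.6 CPM in EE. EE 2 to EE 4 lay above all NE libraries and EE 1 below them, and the log2 fold change was 0.34 (SE 0.18, adjusted p = 0.540). Of the 50-base stretches of these models 73.4% and 60.4% are shared with other genes.

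The 11 H4 genes encode an identical or nearly identical protein from separate loci, and here 6 had a positive and 5 a negative log2 fold change (median 0.09). Hist4h4, the single gene on chromosome 6, was at 93.6, 87.9, 86.2 and 168 CPM in NE 1 to NE 4 and at 73.7, 171, 273 and 126 CPM in EE 1 to EE 4. Here EE 1 was the lowest library and EE 3 the highest, and NE 4 lay among the EE values. Its log2 fold change of 0.57 was the largest of the 47 genes but had a standard error of 0.36 (adjusted p = 0.581), and it was 0.19 without EE 3 and 0.85 without NE 4. Of the 50-base stretches of its model 8.52% are shared with other genes.

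Hist2h4 on chromosome 3 was also highest in EE 3 and lowest in EE 1. It was at 79.1, 100.05, 85.8 and 179 CPM in NE 1 to NE 4 and at 63.3, 99.1, 210.3 and 126 CPM in EE 1 to EE 4. The log2 fold change was 0.17 (SE 0.36, adjusted p = 0.856), and -0.18 without EE 3. Hist1h4d, the H4 gene with the highest CPM, spread less, with 144, 141, 149 and 158 CPM in NE against 141, 159, 189.9 and 166 CPM in EE (log2 fold change 0.15, SE 0.12, adjusted p = 0.637). Hist1h4h was at 102 to 132 CPM in NE and at 75.4 to 140.2 CPM in EE, with a log2 fold change of -0.02 (SE 0.19). Hist1h4c was at 104 to 134 CPM in NE and at 70.7 to 131 CPM in EE, with a log2 fold change of -0.15 (SE 0.18). The EE range enclosed the NE range in Hist1h4h and most of it in Hist1h4c.

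Some histone genes are also known to give polyadenylated mRNAs, which can be kept outside S phase. Of these, 3 were listed here, Hist1h1c, Hist1h2bc and Hist2h2be, and the list may not be complete. Their summed level was 597, 578, 578 and 622 CPM in NE 1 to NE 4 and 603, 653, 604 and 423 CPM in EE 1 to EE 4. NE 4 and EE 3 stood out much less in this sum than in that of all 48 genes, and EE 4 was the lowest. Hist1h1c made up most of it, with a mean of 398 CPM against 169.7 for Hist1h2bc and 14.3 for Hist2h2be. Hist1h1e, which is not among these 3, also varied little, with 215 to 227 CPM in NE and 206 to 229.7 CPM in EE. Hist2h2be, an H2B gene with no 50-base stretch in common with another gene, was at 13.7, 13.8, 15.3 and 16.2 CPM in NE and at 11.9, 17.0, 14.7 and 12.0 CPM in EE. All 3 genes had a negative log2 fold change, with a median of -0.09, and the lowest of their adjusted p-values was 0.765. Without EE 4 the EE to NE ratio of the sums went from 0.961 to 1.04 and Hist1h1c was at 0.11, while Hist1h2bc and Hist2h2be were at -0.02 and -0.01. A difference between these 3 and the other histone genes was not tested.

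Within each group the histone genes moved together from library to library, across all 5 classes. NE 4 was the highest NE library in 40 of the 48 genes and EE 3 the highest EE library in 36. EE 1 was the lowest EE library in 36 genes and the lowest of all 8 in 25. How often these libraries ranked so among all tested genes was not counted. Other genes with an exon model under 1000 bases were also high in NE 4 and low in EE 1, as described below. These counts alone therefore do not set the histone genes apart. Over the 46 models a median of 44.99% of the 50-base stretches are shared with other genes. Reads of near copies may therefore enter several of these genes, and their part was not tested. The pair NE 4 and EE 3 was picked because it was high in the histone genes, so the shares that follow are descriptions. NE 4 and EE 3 were the 2 highest of the 8 libraries in 14 of 47 tested histone genes (29.8%). The share was 10.8% of all other tested genes, 23.7% of the other genes with an exon model under 1000 bases and 28.0% of the protein-coding ones among these. Both libraries lay above the gene's own mean in 39 of 47 histone genes (83.0%), against 31.8% of all others, 56.4% of those under 1000 bases and 58.9% of the protein-coding ones among these. The map of single genes shows that this held in blocks from H1 to H4 and that single genes left it.

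**Figure D2:**
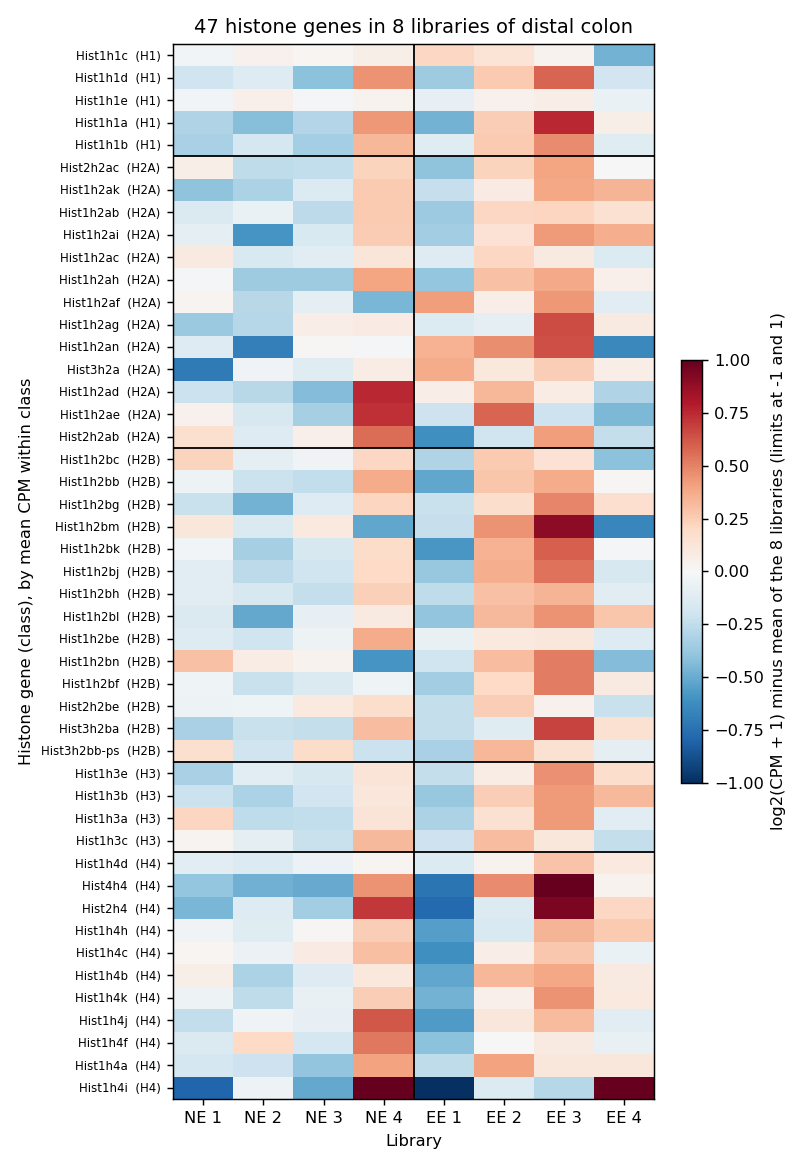
Log2(CPM + 1) of each of 47 histone genes minus its mean over the 8 libraries (colour, limits at -1 and 1), with genes in rows by class and libraries in columns. The columns NE 4 and EE 3 are mostly red and EE 1 mostly blue, and Hist1h4i, Hist1h2bm and Hist1h2bn depart from the others in NE 4.

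Short genes of other kinds showed part of the same order of libraries. The median deviation from the gene's mean, in log2(CPM + 1), was -0.11, -0.20, -0.15 and 0.23 for the histone genes in NE 1 to NE 4 and -0.32, 0.21, 0.39 and -0.02 in EE 1 to EE 4. Over the 574 other tested genes with an exon model under 1000 bases it was 0.05, 0.03, -0.12 and 0.33 in NE and -0.30, 0.17, 0.19 and -0.35 in EE. NE 4, EE 2 and EE 3 were thus high and EE 1 low in both sets, while EE 4 was low in the short genes and near 0 in the histone genes. Over the 7717 other genes of 4000 bases and more the medians lay between -0.04 and 0.09. Each library's trend over gene length was then removed, a setting chosen after seeing the data. In that edgeR fit 9.96% of all genes had an unadjusted p under 0.05 (6.06% higher in EE). Of the 45 histone genes with a length 13 had one, all higher in EE. Their median log2 fold change was then 0.26, and the lowest adjusted p of a histone gene was 0.490. Length here is that of the annotated exon model, which in 13 histone genes runs over 300 bases past the stem-loop. It is 7425 bases for Hist1h1d and 2863 for Hist4h4, so it may not be the length of their transcripts. What else differed between the libraries was not tested.

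**Figure D3:**
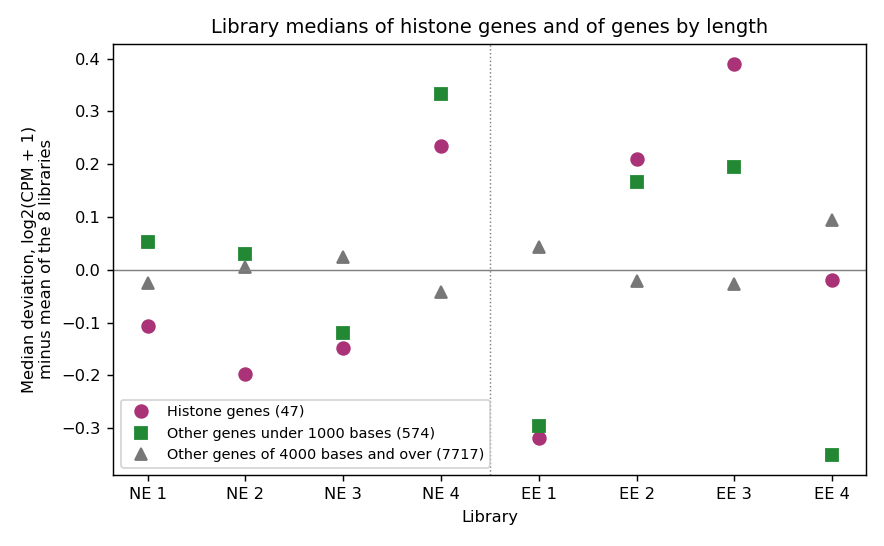
Median deviation of log2(CPM + 1) from each gene's mean of the 8 libraries, per library, for 47 histone genes (circles), 574 other genes under 1000 bases (squares) and 7717 other genes of 4000 bases and over (triangles). Histone genes and short genes are both high in NE 4 (0.23 and 0.33) and low in EE 1 (-0.32 and -0.30), and they part in EE 4 (-0.02 and -0.35).

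Other RNAs without a poly(A) tail had the same 2 highest libraries. Of 17 listed, 7 were in the table, and their summed level was 192, 219, 199 and 394 CPM in NE 1 to NE 4 and 162, 239, 406 and 249.7 CPM in EE 1 to EE 4. NE 4 and EE 3 were above the remaining libraries, and EE 1 was the lowest, as in the histone sum. Scarna2, a small RNA of Cajal bodies, made up most of it, with 121, 138, 129.9 and 263 CPM in NE against 113, 165, 286 and 166 CPM in EE. Terc, the RNA of telomerase, was at 6.32, 6.31, 4.50 and 13.3 CPM in NE and at 5.52, 6.70, 12.99 and 8.72 CPM in EE. Of the 7, 3 had a positive and 4 a negative log2 fold change, with a median of 0.00. Their part in the histone values was not tested.

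The genes of DNA replication, which are active in the same phase of the cell cycle but have polyadenylated mRNAs, had a median log2 fold change of 0.38, against 0.16 for the histone genes. The difference between the lists was not tested. Of the 32 listed, 31 had a positive log2 fold change, 17 were higher in EE at an unadjusted p under 0.05, and in 11 all EE values lay above all NE values. The shares of all tested genes were 50.3%, 5.73% and 2.87%. None of the 32 had an adjusted p under 0.520. Their summed level was 1162, 1017, 1081 and 1253 CPM in NE 1 to NE 4 and 1311, 1285, 1657 and 1677 CPM in EE 1 to EE 4, a ratio of 1.31, or 1.26 without EE 4. EE 4 was the highest library in this sum and the second lowest EE library in the histone sum. The histone sum was 2.42, 2.68, 2.53 and 2.91 times the replication sum in NE 1 to NE 4 and 1.94, 2.69, 2.47 and 1.74 times in EE 1 to EE 4. This ratio was lowest in EE 1 and EE 4, and the groups overlapped.

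The replication genes described singly were chosen for a small p or, for Rrm2, also for its role. Rrm2, a subunit of ribonucleotide reductase, was at 25.9 to 26.1 CPM in NE 1 to NE 3, at 35.5 CPM in NE 4 and at 47.1, 45.6, 57.0 and 51.2 CPM in EE 1 to EE 4. All EE values lay above all NE values, and EE 1, the lowest library for most histone genes, was among the high ones. Its log2 fold change was 0.83 (SE 0.14, adjusted p = 0.520). Rrm1, the large subunit of the same enzyme, had a log2 fold change of 0.51 (SE 0.12), the DNA ligase gene Lig1 0.55 (SE 0.14) and the checkpoint gene Clspn 0.76 (SE 0.20). All 20 mitosis genes also had a positive log2 fold change (median 0.35), with sums of 1138 to 1351 CPM in NE and 1366 to 2004 CPM in EE (ratio 1.28, or 1.17 without EE 4). Mki67, the gene of the proliferation marker Ki-67, was at 203 to 305 CPM in NE and at 263, 274, 291 and 522 CPM in EE.

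**Figure D4:**
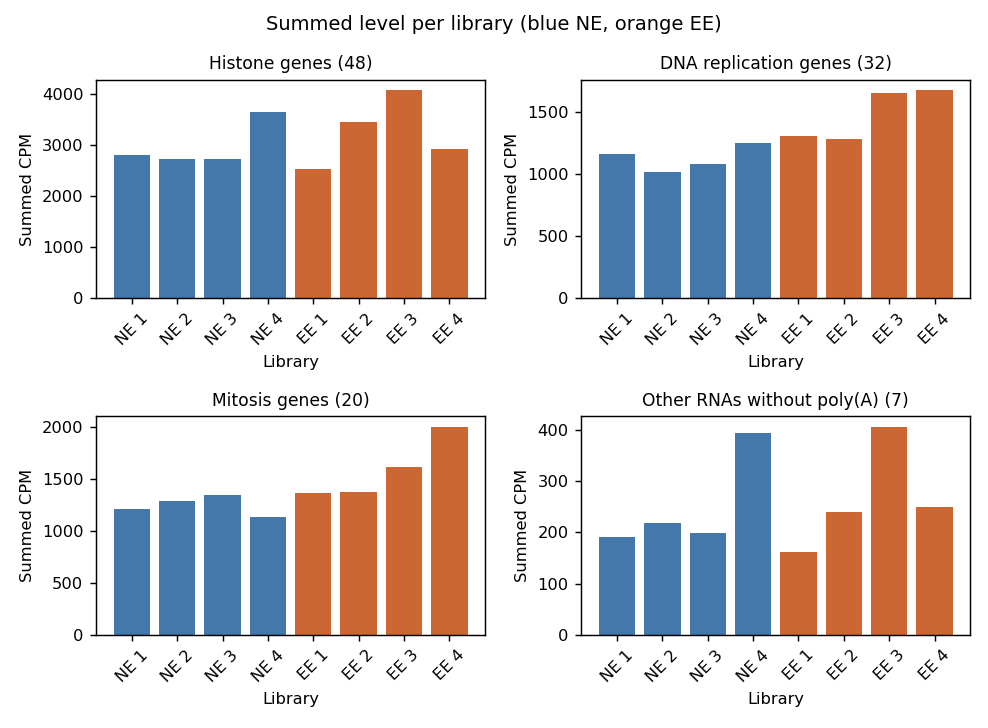
Summed CPM per library (bars from 0, NE in blue and EE in orange) of the 48 histone genes, 32 DNA replication genes, 20 mitosis genes and 7 other RNAs without a poly(A) tail. NE 4 and EE 3 are the highest bars for the histones (3648 and 4086) and the other RNAs (394 and 406), and EE 4 is the highest for replication (1677) and mitosis (2004).

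Histone chaperones carry new histone proteins to the DNA. Of 19 histone chaperone genes 18 had a positive log2 fold change (median 0.30), against 50.3% of all tested genes. At an unadjusted p under 0.05, 10 were higher in EE, against 5.73% of all tested genes. In 7 all EE values lay above all NE values, against 2.87%. None of the 19 passed the test, with 0.520 as the lowest adjusted p. Supt16, a subunit of the FACT chaperone, was at 99.5 to 109.8 CPM in NE and at 127 to 150.3 CPM in EE (log2 fold change 0.37, SE 0.11). Nasp, which holds soluble H3 and H4, was at 63.6 to 76.1 CPM in NE and at 78.3 to 102 CPM in EE (0.40, SE 0.12). Anp32e, a chaperone of the variant H2A.Z, had a log2 fold change of 0.45 (SE 0.13), and Chaf1a, a subunit of the replication-coupled assembly factor CAF-1, 0.69 (SE 0.20). These 4 were chosen for a small p, so that their groups did not overlap says little by itself. The adjusted p of all 4 was 0.520.

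Another list holds genes whose products make, end or degrade histone mRNA. The log2 fold change was above 0 in 22 of the 24 tested (median 0.14), against 50.3% of all tested genes. In 3 all EE values lay above all NE values, against 2.87% of all tested genes. At an unadjusted p under 0.05, 1 was higher in EE, against 5.73% of all tested genes, and none of the 24 passed the test. Slbp, whose product binds the stem-loops printed above, was at 43.7, 34.0, 43.4 and 40.4 CPM in NE 1 to NE 4 and at 35.7, 46.7, 43.7 and 40.6 CPM in EE 1 to EE 4. Its log2 fold change was 0.05 (SE 0.13, adjusted p = 0.904). Npat, the coactivator of histone transcription, was at 54.5 to 59.7 CPM in NE and at 62.4 to 72.1 CPM in EE without overlap (log2 fold change 0.20, SE 0.10, adjusted p = 0.537). The gene with the smallest p was Zcchc11, a uridylyltransferase that tags histone mRNA for decay, at 0.42 on the log2 scale (SE 0.15, adjusted p = 0.520). Cpsf2, a subunit of the cleavage complex, had 0.21 (SE 0.11), and the cap-binding gene Ncbp1 0.29 (SE 0.15).

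Replication-independent histone genes, most of which give polyadenylated mRNAs and are used outside S phase as well, gave 7 positive log2 fold changes among 10 tested, with a median of 0.14. H3f3b, an H3.3 gene, was at 413, 444, 421 and 544 CPM in NE 1 to NE 4 and at 645, 542, 632 and 461 CPM in EE 1 to EE 4. Its highest library was EE 1 and its highest NE library NE 4 (log2 fold change 0.32, SE 0.15, adjusted p = 0.520). H2afz, the H2A.Z gene, was at 18.3 to 26.5 CPM in NE and at 22.1 to 35.5 CPM in EE (0.40, SE 0.19). H2afx, the variant phosphorylated at DNA breaks, was at 51.5 to 68.1 CPM in NE and at 55.8 to 77.5 CPM in EE (0.20, SE 0.14). The macroH2A gene H2afy2 was at 0.53 on the same scale (SE 0.27).

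Markers of cell types that differ in how often they divide were read in the same libraries. The 8 smooth muscle genes were lower in EE without passing the test (median log2 fold change -0.78), with sums of 5194, 5482, 4713 and 3394 CPM in NE 1 to NE 4 and 4009, 4255, 2234 and 645 CPM in EE 1 to EE 4. The EE to NE ratio of these sums was 0.593, or 0.745 without EE 4. Within NE the highest histone library, NE 4, had the lowest smooth muscle sum, whereas in EE the lowest smooth muscle sum was that of EE 4, whose histone sum was the second lowest of that group. Of the 12 markers of distal colon epithelium 10 had a negative log2 fold change (median -0.39). Their sums ran from 11882 to 16540.3 CPM in NE. EE 1 to EE 4 had 11401, 13495, 6776 and 9810.3 CPM, so the lowest was that of EE 3, the highest histone library. The 6 small intestinal genes in the table summed to 236, 352, 164 and 649 CPM in NE 1 to NE 4 and to 349, 164, 584 and 418 CPM in EE 1 to EE 4. Their 2 highest libraries, NE 4 and EE 3, were those of the histone sum, and Lyz1 made up most of it. Of 9 tested markers of crypt stem and transit cells 8 had a positive log2 fold change (median 0.36). Germinal centre B cells, which divide fast, had sums of 81.3 to 107 CPM over 10 genes in NE and 62.4 to 95.5 CPM in EE. The part of any of these cell types in the histone values was not tested.

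A few histone genes had another order of libraries, with NE 4 and EE 4 alike and apart from the other 6. They were named after their values were seen. Hist1h4i was at 2.68, 5.16, 3.47 and 18.6 CPM in NE 1 to NE 4 and at 1.91, 4.78, 4.23 and 14.4 CPM in EE 1 to EE 4. Hist1h2bp, the gene that missed the filter, had 3, 3, 6 and 33 counts in NE and 3, 4, 6 and 25 counts in EE, or 0.474, 0.430, 0.563 and 5.47 CPM and 0.637, 0.766, 0.907 and 3.96 CPM. In both genes NE 4 and EE 4 were the 2 highest libraries, well above the rest. Hist1h2bm was at 42.3, 35.1, 41.9 and 26.9 CPM in NE and at 33.1, 53.6, 73.3 and 24.4 CPM in EE. Hist1h2bn was at 20.4, 17.3, 16.9 and 10.6 CPM in NE and at 14.2, 20.7, 23.9 and 11.9 CPM in EE. In these 2 genes NE 4 and EE 4 were the 2 lowest libraries.

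NE 4 and EE 4 were the 2 highest libraries in 2 of the 48 histone genes and the 2 lowest in 2. The shares among all tested genes were 2.89% and 1.78%, and Hist1h2bp is not one of the tested genes. Counts of 2 are too few to set the histone genes apart from other genes. All 4 of these histone genes lie on chromosome 13 below position 23000000, where 15 of the 48 genes start. Of the 25 genes in the block above that position 0 had this order, and the difference between the blocks was not tested. Hist1h2bn and Hist1h2bp are each a partner in a head-to-head pair printed above. Their partners did not have that order: Hist1h2ak was at 34.3, 36.4, 41.4 and 54.9 CPM in NE 1 to NE 4 and at 38.6, 48.2, 59.98 and 58.0 CPM in EE 1 to EE 4. Hist1h2an was at 9.95, 6.45, 11.1 and 10.8 CPM in NE and at 14.2, 15.5, 17.7 and 6.66 CPM in EE. Of the 50-base stretches of Hist1h2bn 86.4% are shared with other genes, against 44.1% for Hist1h2bp and 28.9% for Hist1h4i, and how reads with several matches were counted is not given in the sources used here. The part of shared reads in this order was not tested.

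**Figure D5:**
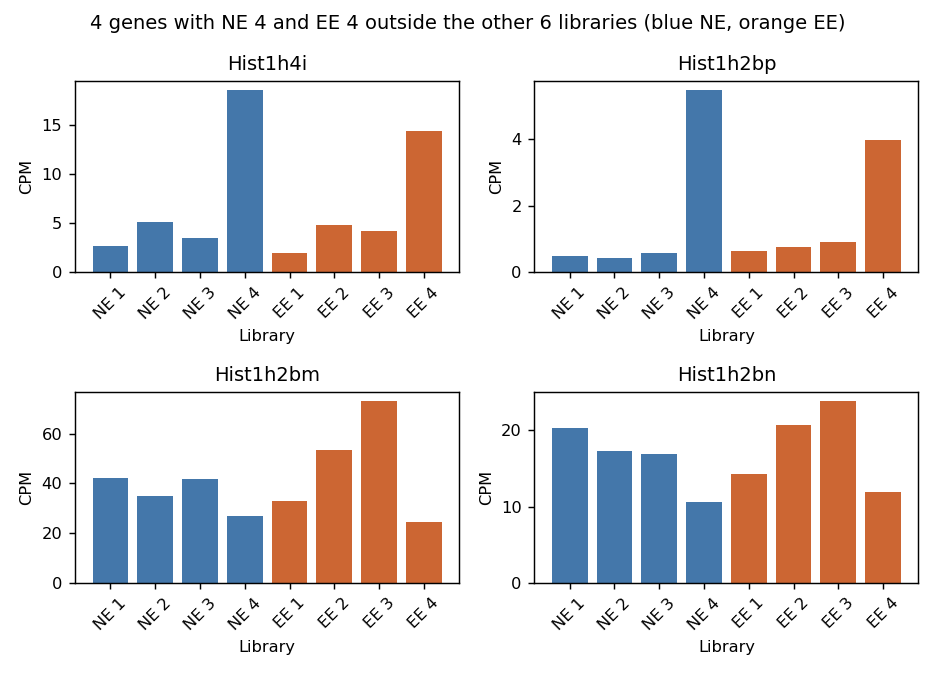
CPM per library (bars from 0, NE in blue and EE in orange) of Hist1h4i, Hist1h2bp, Hist1h2bm and Hist1h2bn, each on its own axis. NE 4 and EE 4 are the 2 highest bars in the upper panels (18.6 and 14.4, 5.47 and 3.96) and the 2 lowest in the lower panels (26.9 and 24.4, 10.6 and 11.9).

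The authors' deposited table also gives a log2 fold change and an FDR for each gene. An FDR under 0.05 was given to 386 genes (2.39%) in the authors' deposited table, and 1 of the 48 histone genes was among them. This was Hist4h4, with a log2 fold change of -0.45 and an FDR of 0.0288 in the authors' deposited table. The headers of the authors' deposited table do not name the numerator, and its sign was negative for 36 of the 48 histone genes and opposite to EE minus NE for all but 1 of the 47 tested here. A direction for housing drawn from the columns therefore rests on the column labels.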

How the data were processed

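The authors deposited one table with raw read counts per gene for 8 libraries and, per the file headers, the log2 fold change and FDR (adjusted p-value) of their own test. Novoalign 2.08.01, DESeq 1.14.0 and build mm10 are named, per the submitters' processing notes. Not given in the sources used here are the annotation, the counting program, the use of strand and the treatment of reads with several matches; near-identical histone genes may exchange reads.

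The deposited counts went into edgeR 4.0.16 (R 4.3.3), with filterByExpr (14311 genes left) and TMM scaling. EE and NE were compared by its quasi-likelihood test in robust mode, without covariates. P-values were adjusted over all tested genes (Benjamini-Hochberg), with a threshold of 0.05. CPM use the scaled library size. The biological coefficient of variation was 0.219. Standard errors are the log2 fold change over the root of the test's F. The test was checked on simulated counts. Positions and 50-base stretches come from GENCODE M21 and promoters from RefSeq.

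The histone genes and 13 gene lists were chosen with earlier results of these data known. Described singly were the 16 histone genes with the highest mean CPM, the highest of each class and any at an unadjusted p under 0.05. Those listed with known polyadenylated forms were added (18 in all). From each list discussed, up to 4 genes with the smallest p and Slbp, Npat, Rrm2, Mki67, H2afz, H2afx and H3f3b could be named. Other genes were named after their values were seen.

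Same-numbered libraries share only a number. Alternatives were DESeq2 1.42.0, limma-voom (limma 3.58.1), other scalings and filters, a replicate block, each library left out in turn and, added after seeing the data, a gene-length offset.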

Additional observations from a re-analysis of the deposited data

Results flagged for a closer look

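In each group of 4 libraries the highest and the lowest value were compared with the others, and a value was listed where its gap to the nearest other library took up a larger part of the group's range than Dixon's critical value for 4 samples. This held in 14 of 134 groups examined, and chance alone lists about 1 group in 20. The groups are not independent, since the sums contain the single genes.

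NE 4 stood above the other NE libraries in 6 histone genes. These were Hist1h1a (273.8 CPM against 151 to 165), Hist4h4 (167.6 against 86.2 to 93.6), Hist1h2ad (13.9 against 5.54 to 6.63), Hist3h2ba (9.12 against 5.53 to 6.02), Hist1h4i (18.6 against 2.68 to 5.16) and Hist1h2bp (5.47 against 0.430 to 0.563). The same library stood above the others in the summed CPM of all 48 histone genes (3648 against 2730.3 to 2807), of H1 (1477 against 1109 to 1169), of H3 (169.7 against 134 to 135) and of H4 (1030.3 against 710.1 to 718). It did so too in the 7 other RNAs without a poly(A) tail (394 against 192 to 219) and in the replication-independent histone genes (1341 against 1158 to 1181).

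In the EE group, EE 4 stood high for Hist1h2bp (3.96 CPM against 0.637 to 0.907) and EE 1 stood low for Hist1h2ab (29.3 CPM against 42.2 to 44.1).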

How the results depend on the processing

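The count of histone genes with an adjusted p under 0.05 was 0 under every alternative run, also at a threshold of 0.1. Over all genes edgeR called 0, DESeq2 12 and, with one library left out, between 0 and 1 (the 1 without EE 2). The count of histone genes at an unadjusted p under 0.05 was 1 in the reported fit, 0 with limma-voom, 13 with the length-trend offset (added after seeing the data; 45 genes tested) and 0 to 9 with one library left out. Its 0 came without NE 2, NE 3 or EE 3. The number of positive histone fold changes ran from 28 (without EE 3) to 41 (without EE 1), the median log2 fold change from 0.03 to 0.27 and the ratio of the sums from 1.004 to 1.18.

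Small fold changes turned sign under some settings. Ratios of the list sums without EE 4, printed beside those sums, were also added after seeing the data. With one library left out, log2 fold changes ran from -0.128 to 0.134 for Hist1h4h, -0.0364 to 0.0088 for Hist1h1e, -0.261 to 0.0016 for Hist1h4c, -0.0996 to 0.109 for Hist1h1c, -0.0282 to 0.365 for Hist1h1d, -0.012 to 0.249 for Hist1h2bb and -0.185 to 0.501 for Hist2h4. With the length-trend offset Hist1h1c was at 0.0422, Hist1h1e at 0.0417 and Hist1h4h at 0.139. The cause was not tested.

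With the replicate number as a block, 0 histone genes had an adjusted p under 0.05, 1 had an unadjusted p under 0.05, 35 fold changes were positive and their median was 0.14. Deviations of same-numbered libraries correlated at 0.25, 0.01, -0.18 and -0.04 over all tested genes, and at 0.31, -0.17, 0.23 and 0.61 over the histone genes. Since not every pair was above 0.1, the numbers were not taken to pair the libraries. Depth limits the genes below about 10 CPM most, where some libraries hold under 100 counts.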

Other observations

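In a head-to-head pair an H2A and an H2B gene start from opposite ends of one short stretch. The 7 pairs found among the genes with a RefSeq window gave these log2 fold changes, EE minus NE. Hist1h2ai and Hist1h2bl were at 0.31 and 0.36, Hist1h2ag and Hist1h2bj at 0.31 and 0.23, Hist1h2ah and Hist1h2bk at 0.18 and 0.24, and Hist1h2ak and Hist1h2bn at 0.30 and 0.12. Hist1h2ad was at 0.03 beside 0.28 for Hist1h2bf. In the pair of Hist1h2ae and Hist1h2bg the H2A gene was at -0.16 (SE 0.33) and the H2B gene at 0.31 (SE 0.18). Hist1h2an was at 0.49 (SE 0.30), and its partner Hist1h2bp was below the filter. No gene of these pairs had an adjusted p under 0.05 by edgeR, and none an unadjusted p under 0.05.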
